A study of Homo sapiens with 11 samples.

Results

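The wells collected on Day 60 of a long cardiomyocyte culture were compared with the wells collected on Day 30, to describe which functions, and which cell types other than cardiomyocytes, changed over that first interval. The comparison used 7 of the 11 libraries of the count table, 4 from Day 30 and 3 from Day 60, and all 19990 genes of the table. The other libraries, from wells collected on Day 113, entered only the low-count filter, the scaling of library size and the shared estimate of the spread. Every well held cells of WTC11, an established line of pluripotent stem cells reprogrammed from adult human cells, grown to passage 63 and put through 1 differentiation. Mesoderm was induced with CHIR99021, an inhibitor of GSK3, and cardiac fate was then directed with IWP2, an inhibitor of Wnt secretion. Wells were kept in medium with B27 containing insulin. No other treatment separated the groups, so Day 30 and Day 60 wells shared line, passage, agents and medium and differed in time in culture. Because the replicates were parallel wells of 1 line and 1 differentiation, p-values measure the spread between these wells, and time in culture cannot be told apart from the occasion of collection.

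Cardiomyocytes made in this way resemble fetal heart muscle, and during heart development contractile isoforms, ion channels and energy metabolism shift towards adult forms while fetal growth programmes decline. The differentiation passes through mesendoderm, a common precursor of heart muscle and of endoderm. Cultures can hold other cells beside cardiomyocytes: yolk sac or liver-like endoderm, epithelium, endothelium and stroma. More rarely they hold ectodermal cells of the eye or nervous system. Genes were read in 76 lists, 45 of functions and 31 of cell types. The lists held 1758 genes, of which 1518 were in the count table, and counts below are of these measured members unless stated. In RNA from whole wells, fewer cells of a type and less RNA per cell cannot be told apart.

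The 7 libraries held 26590598 to 32429724 counts, a depth at which 1 count was worth 0.0315 to 0.0382 counts per 1000000 (CPM) after scaling for library size, the level used throughout. The cardiomyocyte label fitted the defining markers in every well. Cardiac troponin T (TNNT2) stood at 2881, 2578, 2260.0 and 3273 CPM at Day 30 and 3206, 3236 and 2536 CPM at Day 60, and the cardiac transcription factor NKX2-5 at 394, 357, 339.8 and 395 CPM at Day 30 and 384, 358 and 298 CPM at Day 60. For both genes the days overlapped and the edgeR test gave no call (log2 change 0.12 ± 0.16, adjusted p = 0.74 and log2 change -0.10 ± 0.15, adjusted p = 0.77).

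At an adjusted p under 0.05 in edgeR's quasi-likelihood test, 878 genes rose (4.39% of all genes) and 1182 fell (5.91%), together 10.3%, and the median log2 change of all genes was -0.01. These percentages are the background for every list below. Separation of the days was more common than a call. In 10.7% of all genes every Day 60 well was above every Day 30 well, and in 14.1% every Day 60 well was below, together 24.8%. Where separate days are mentioned below, these shares are the background, and separation alone is not a call. A log2 change is Day 60 minus Day 30, with its standard error (SE). Of the 2060 calls, 885 were kept with each of the 7 wells left out in turn, 406 higher and 479 lower. Leaving out Day 30 replicate 2 gave 1323 calls, leaving out Day 60 replicate 1 gave 1259, and leaving out Day 60 replicate 3 gave 1220. Called genes given below with values were kept with each well left out unless the loss is stated, and "kept" has that meaning throughout. For lists with at least 3 calls in a direction, wells whose removal moved that count by over 1.5 times are named, or the range of the count is given. Counts of 1 or 2 calls often changed with 1 well left out. The calls were spread unevenly over the lists, with cell type lists at both ends.

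**Figure D1:**
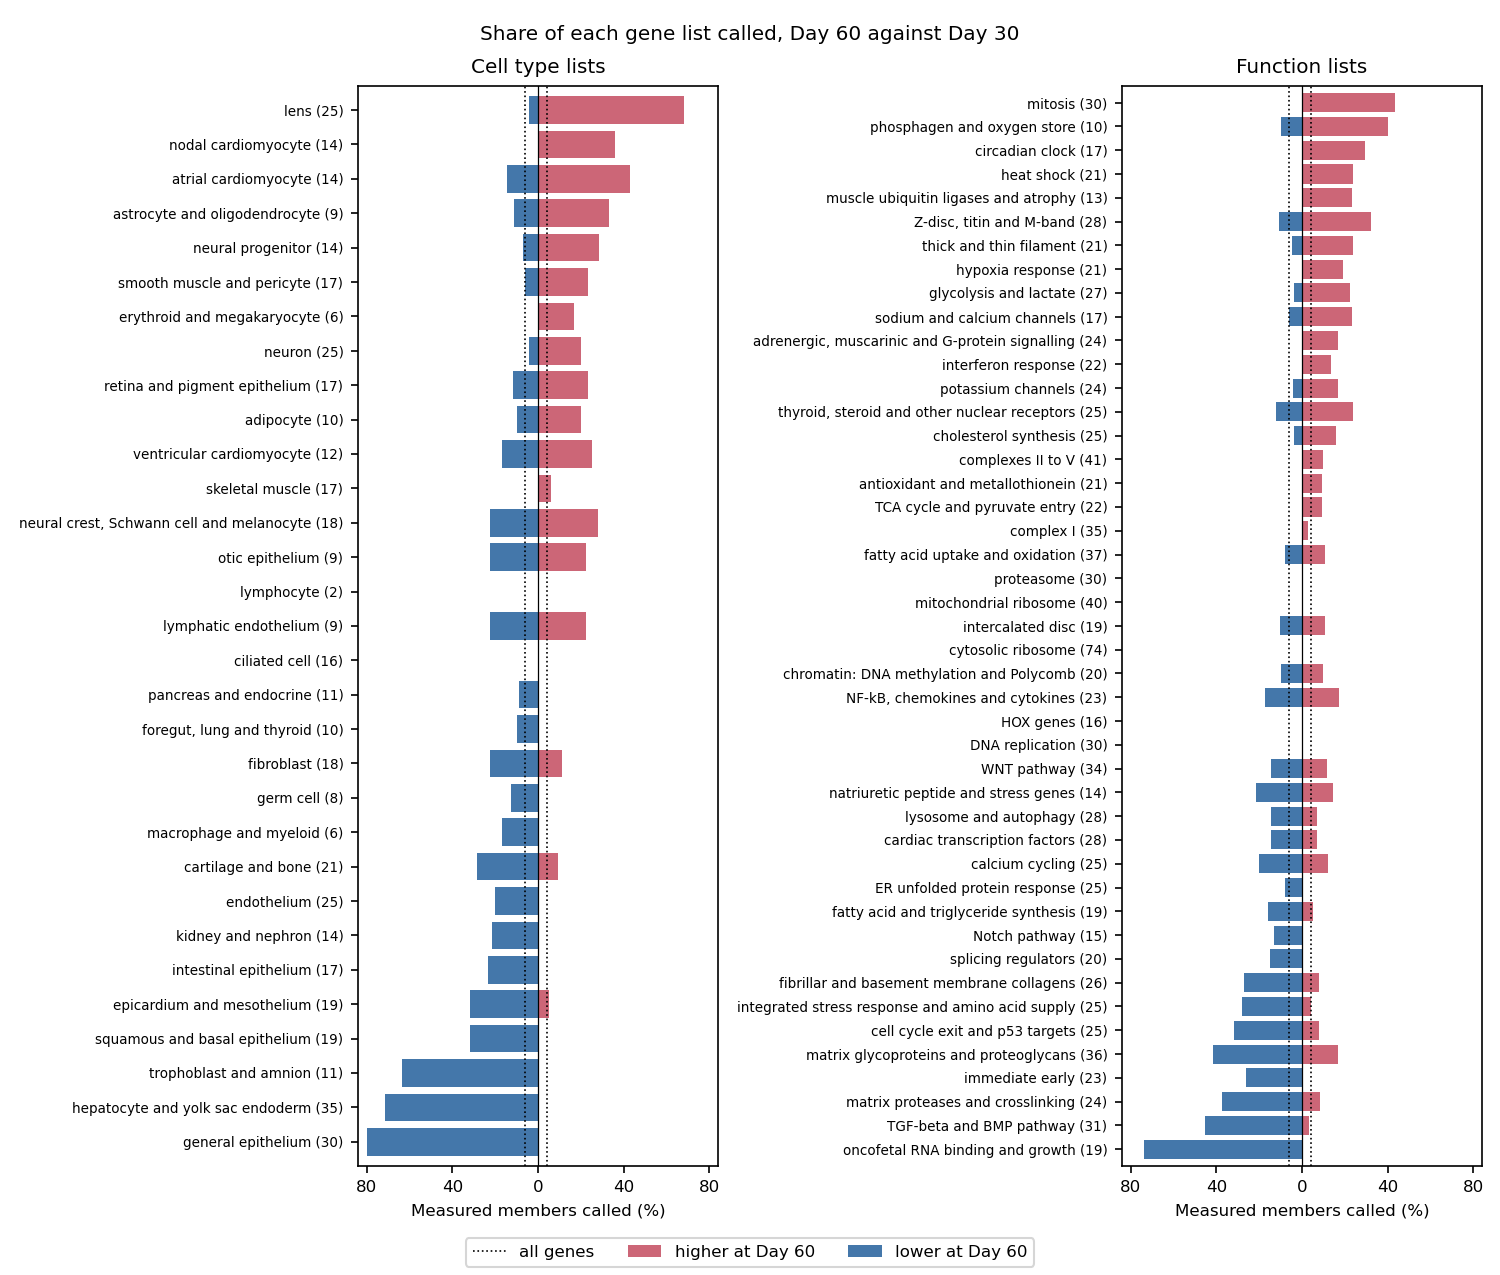
Percent of measured members called higher (bars to the right) and lower (bars to the left) at Day 60, for all 76 lists, with the number of measured members in brackets. Dotted lines mark 4.39% and 5.91%, the shares of all 19990 genes called higher and lower. The lens list reaches furthest to the right, and the general epithelium, hepatocyte and oncofetal lists reach furthest to the left.

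Genes of liver and yolk sac endoderm, which secretes plasma proteins, fell in most members. Of 35 measured members, 25 fell and 0 rose, 22 of the calls were kept with each well left out, and the median log2 change was -4.52 (-4.43 with genes at 0 counts set to their bound). Summed over the list, the level was 1703, 1811, 1372 and 625 CPM in the Day 30 wells and 72.8, 84.1 and 79.6 CPM in the Day 60 wells. Every Day 60 well was below every Day 30 well, and the lowest Day 30 well, replicate 4, was still well above the highest Day 60 well.

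The fetal plasma carrier alpha-fetoprotein (AFP) was measured at 596, 666, 499 and 238 CPM at Day 30 and 4.56, 8.14 and 5.14 CPM at Day 60. By edgeR, AFP had a log2 change of -6.40 ± 0.34 (SE; adjusted p = 7.1e-08). Albumin (ALB), its adult counterpart, stood at 409.9, 393, 314 and 115 CPM at Day 30 and 29.9, 30.2 and 34.7 CPM at Day 60. For ALB the log2 change was -3.28 ± 0.44 (SE; adjusted p = 0.00024). AFP thus fell 84.4-fold and ALB 9.74-fold, and for both genes Day 30 replicate 4 was the lowest of its day. The fibrinogen alpha chain (FGA), a clotting protein, went from 27.9, 25.4, 22.6 and 9.31 CPM to 0.255, 0.553 and 0.379 CPM. By edgeR, FGA had a log2 change of -5.75 ± 0.56 (SE; adjusted p = 1.5e-05). The fibrinogen beta chain (FGB) went from 41.4, 48.7, 38.1 and 23.4 CPM to 0.128, 0.479 and 0 CPM, with log2 change -7.60 ± 0.67 (SE; adjusted p = 5.8e-06); it was -9.13 with Day 60 replicate 2 left out and -6.97 with Day 60 replicate 3 left out. The days did not overlap for either chain, and traces of both remained in at least 2 Day 60 wells.

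Apolipoprotein B (APOB), the structural protein of secreted lipoproteins, was at 44.3, 39.5, 33.1 and 12.9 CPM at Day 30 and 0.574, 1.81 and 1.29 CPM at Day 60. By edgeR, APOB had a log2 change of -4.74 ± 0.56 (SE; adjusted p = 7.0e-05). Serpin A1 (SERPINA1), the main plasma inhibitor of elastase, was at 93, 119, 80.1 and 36 CPM at Day 30 and 2.46, 3.72 and 3.41 CPM at Day 60. For SERPINA1 the log2 change was -4.68 ± 0.41 (SE; adjusted p = 6.1e-06). The iron carrier transferrin (TF) was at 141, 144, 114 and 46.9 CPM at Day 30 and 4.53, 5.23 and 3.03 CPM at Day 60. TF had a log2 change of -4.71 ± 0.53 (SE) and an adjusted p of 4.3e-05. For all 3 genes replicate 4 was the lowest Day 30 well, and every Day 60 well lay below it. Of the transcription factors of endoderm, FOXA2 had 224 counts over the Day 30 wells and 1 count over the Day 60 wells, a ratio of 175 (95% counting interval 31.0 to 6928), and its fitted log2 change -6.98 became -8.88 with Day 60 replicate 2 left out. HNF4A, the master regulator of liver genes, fell from 5.35, 7.47, 6.15 and 3.37 CPM to 0.319, 0.405 and 1.1 CPM (log2 change -3.18 ± 0.72, adjusted p = 0.0095), a call that single wells moved (adjusted p = 0.051 with Day 60 replicate 1 left out and log2 change -3.91 with Day 60 replicate 3 left out). FOXA3 was not called (adjusted p = 0.16), although it was lower in every Day 60 well than in every Day 30 well.

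Promoters of some list members that fell are shown. All those printed hold the motif marked below, which most promoters of the list lacked. Among the promoters without it were those of SERPINA1 and TF, which also fell. The 150 bases before the transcription start are given from RefSeq (GRCh38.p14) on the strand of the gene, 5′ to 3′, with the letters GTTAAT, or the reverse complement ATTAAC, in capitals. GTTAAT is a short motif known from promoters of liver genes. The stretches lie at chr4:73436071-73436220 (plus strand), chr4:73404137-73404286 (plus strand), chr4:154590743-154590892 (minus strand) and chr4:154562830-154562979 (plus strand), and the first capital stands 132, 61, 52 and 51 bases before the start.
AFP: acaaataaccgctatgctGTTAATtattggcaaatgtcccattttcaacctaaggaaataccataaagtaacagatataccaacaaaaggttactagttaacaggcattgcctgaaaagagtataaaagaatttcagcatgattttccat
ALB: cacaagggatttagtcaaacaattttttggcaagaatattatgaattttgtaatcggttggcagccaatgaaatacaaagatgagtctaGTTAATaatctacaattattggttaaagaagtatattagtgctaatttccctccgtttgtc
FGA: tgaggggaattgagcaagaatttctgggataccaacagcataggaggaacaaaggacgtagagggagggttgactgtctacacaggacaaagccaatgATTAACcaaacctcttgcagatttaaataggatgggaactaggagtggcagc
FGB: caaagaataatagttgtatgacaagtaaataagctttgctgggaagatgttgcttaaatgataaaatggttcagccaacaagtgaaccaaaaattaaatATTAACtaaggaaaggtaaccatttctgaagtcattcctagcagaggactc
In windows of 300 bases, 250 before and 50 after the start and read on both strands, the 6 letters occurred in 9 of the 26 list members with a promoter in the RefSeq table (34.6%), and in 4.59% of the 13692 genes of the count table with one. Of 21 promoters of the lens list, 1 held them. A match of letters describes the window and is not a measured binding site.

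Most genes of simple epithelium fell as well. Of 30 measured members, 24 fell and 0 rose, with 19 calls kept and a median log2 change of -2.17. EPCAM, a cell surface protein of epithelia, was at 45.6, 92, 71.1 and 28.7 CPM at Day 30 and 2.62, 1.25 and 1.92 CPM at Day 60. EPCAM had a log2 change of -4.93 ± 0.40 (SE) and an adjusted p of 2.9e-06. The tight junction protein CLDN6, typical of embryonic epithelia, was at 120.1, 153, 133 and 118 CPM at Day 30 and 17.5, 19.4 and 17 CPM at Day 60. CLDN6 had a log2 change of -2.87 ± 0.20 (SE) and an adjusted p of 5.4e-07. E-cadherin (CDH1), the adhesion protein of epithelial junctions, was at 55, 95.4, 86.9 and 39.7 CPM at Day 30 and 6.7, 9.4 and 6.94 CPM at Day 60, with log2 change -3.17 ± 0.63 (SE; adjusted p = 0.0041), and the call was lost with robust dispersions (adjusted p = 0.053). Replicates 2 and 3 were the highest Day 30 wells for EPCAM, CLDN6 and CDH1, and no Day 60 well overlapped them. Keratins KRT8 and KRT18, which immature cardiomyocytes also make, fell less. KRT18 went from 507, 662, 526 and 450.5 CPM to 250.3, 287 and 249 CPM (log2 change -1.03 ± 0.17, adjusted p = 0.0011), and KRT8 from 1017, 1290.5, 1069.5 and 991 CPM to 657, 723 and 613 CPM (log2 change -0.72 ± 0.14, adjusted p = 0.0047). The exons of KRT8 and KRT18 overlap in the annotation, so reads of the pair may be shared.

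ESRP1 and ESRP2, the splicing factors that set the epithelial form of many transcripts, fell as well. ESRP1 was at 16.3, 21.1, 21.7 and 9.31 CPM at Day 30 and 4.4, 3.72 and 3.38 CPM at Day 60 (log2 change -2.16 ± 0.27, adjusted p = 0.00011), and ESRP2 at 8.67, 13.2, 10.3 and 6.39 CPM at Day 30 and 1.4, 4.53 and 3.38 CPM at Day 60 (log2 change -1.64 ± 0.35, adjusted p = 0.0075). With MBNL3 (log2 change -1.36 ± 0.29, adjusted p = 0.0068) they were the 3 of 20 measured splicing regulators that changed, while the muscle splicing regulators RBM20 and RBM24 were not called (adjusted p = 0.88 and 0.86).

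Markers of amnion and trophoblast, which are extraembryonic tissues, differed several-fold among the Day 30 wells and fell in most measured members. Of 19 list members 11 were in the count table, and the others have no level here. Of the 11 measured members 7 fell and 0 rose, 5 of them kept, with a median log2 change of -4.55 (-3.26 at the bounds). The GABA receptor subunit GABRP was at 143, 460.1, 375 and 109 CPM at Day 30 and 8.81, 3.21 and 5.11 CPM at Day 60. GABRP had a log2 change of -5.56 ± 0.51 (SE) and an adjusted p of 9.6e-06. The immune checkpoint ligand VTCN1 was at 31.7, 106, 78 and 19.2 CPM at Day 30 and 0.989, 0.442 and 0.536 CPM at Day 60. VTCN1 had a log2 change of -6.46 ± 0.66 (SE) and an adjusted p of 1.9e-05. Day 30 replicates 2 and 3 held several times the level of replicates 1 and 4 for both genes, and the Day 60 wells lay together far below. The transcription factors TFAP2C and GATA3 act in trophoblast. TFAP2C was at 1.91, 3.37, 3.69 and 1.44 CPM at Day 30 and at 0 in all Day 60 wells, at least 25.9-fold lower, and GATA3 was at 7.87, 18, 14.5 and 5.7 CPM at Day 30 and 0.319, 1.7 and 1.61 CPM at Day 60 (log2 change -3.26 ± 0.51, adjusted p = 0.00073). TFAP2A, a related factor counted in the neural crest list, fell from 7.18, 24.1, 11.8 and 7.25 CPM to 0.511, 0.663 and 1.04 CPM (log2 change -4.08 ± 0.63, adjusted p = 0.00062). Summed without IGFBP3, the list ran from 153 to 612 CPM at Day 30 and from 15.6 to 19.2 CPM at Day 60.

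**Figure D2:**
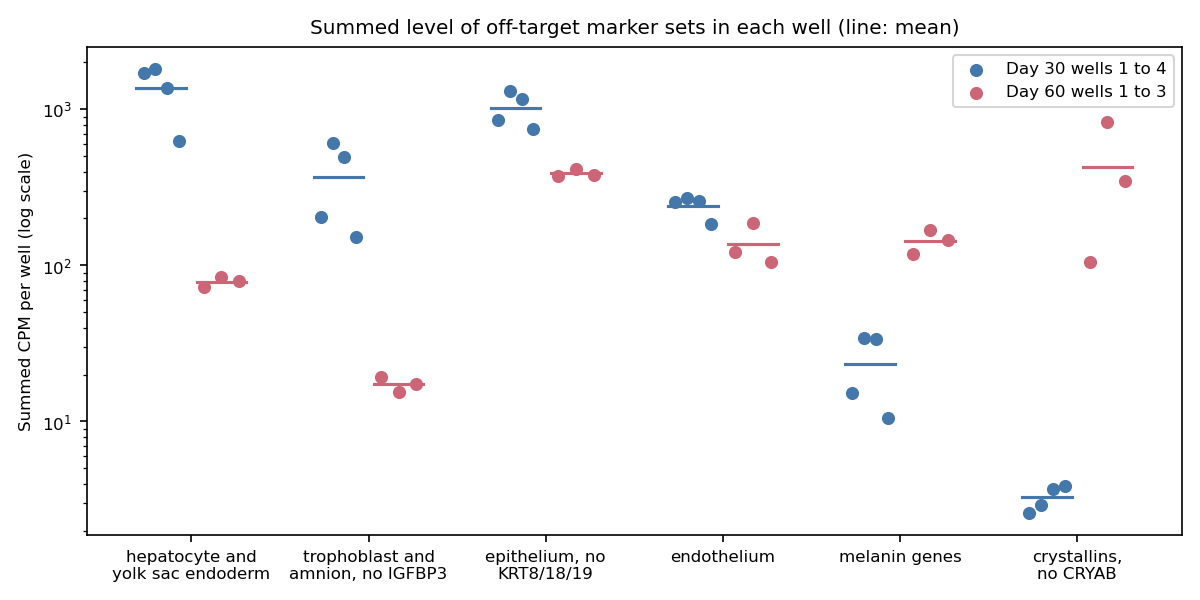
Summed level of marker lists in each well, in CPM on a log axis, with 1 point per well and a bar at the mean of each day. Hepatocyte, epithelium and trophoblast sums are lower in every Day 60 well, crystallin and melanin gene sums are higher in every Day 60 well, and endothelium sums overlap. In the Day 30 wells the trophoblast sum runs from 153 to 612 CPM, and in the Day 60 wells the crystallin sum runs from 106 to 833 CPM.

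Intestinal, squamous, kidney and pancreas lists gave falls in some members, and the ciliated cell list gave no edgeR call. Intestinal epithelium had 4 of 17 members lower, with the microvillus protein VIL1 at 4.16, 5.04, 5.13 and 2.65 CPM at Day 30 and the hindgut factor CDX2 at 2.94, 3.87, 2.7 and 1.37 CPM. Both were at 0 in all Day 60 wells, at least 42.3-fold and 27.1-fold lower. In the squamous and basal list 6 of 19 fell, among them the hemidesmosome collagen COL17A1, which was at 44.4, 123, 87.4 and 29.6 CPM at Day 30 and 1.88, 1.92 and 2.02 CPM at Day 60. By edgeR, COL17A1 had a log2 change of -5.19 ± 0.51 (SE; adjusted p = 1.7e-05). KRT5, a defining keratin of basal epithelium, was not called (1.8, 3.24, 3.95 and 3.47 CPM at Day 30 and 5.46, 0.111 and 0 CPM at Day 60). Kidney markers fell in 3 of 14 members, but the summed list did not fall (620 to 716 CPM at Day 30 and 700 to 846 CPM at Day 60). Of 16 ciliated cell genes edgeR called 0 (1 at an unadjusted p under 0.05), DESeq2 called 1 and limma-voom called 1, a rise. The ciliated sum was higher in every Day 60 well, at 54.6 to 62.0 CPM at Day 30 and 67.2 to 74.8 CPM at Day 60. The pancreas factor PDX1 went from 0.84, 0.634, 1.15 and 0.515 CPM to 0 in all Day 60 wells, at least 7.83-fold lower, and it was the single call among 11 members of that list.

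Genes of vessels and of the surface lining changed in part. Of 25 endothelial genes 5 fell and 0 rose (3 fell when Day 60 replicate 1 or 3 was left out), and 2 calls were kept: PLVAP, a protein of vessel fenestrations (18.1, 16.4, 14 and 9.14 CPM at Day 30 and 2.62, 4.86 and 3.97 CPM at Day 60, log2 change -1.92 ± 0.31, adjusted p = 0.00099), and EGFL7, a secreted endothelial factor (25.2, 27.8, 26.6 and 21 CPM at Day 30 and 13, 14.3 and 9.68 CPM at Day 60, log2 change -1.03 ± 0.21, adjusted p = 0.0059). The defining endothelial genes CDH5 and PECAM1 were not called (adjusted p = 0.11 and 0.37). Of 19 genes of epicardium and mesothelium, the lining of the heart and body cavity, 1 rose and 6 fell. MUC16, a mucin of mesothelium, was at 40.3, 65.8, 84.1 and 28.1 CPM at Day 30 and 1.76, 0.516 and 0 CPM at Day 60, with log2 change -6.16 ± 0.65 (SE; adjusted p = 2.5e-05), and its log2 change was -7.77 with Day 60 replicate 1 left out and -5.53 with Day 60 replicate 3 left out. WT1, the transcription factor that marks epicardium, moved the other way, from 4.58, 6.0, 6.98 and 4.78 CPM to 24.3, 23.1 and 17.3 CPM. WT1 had a log2 change of 1.95 ± 0.19 (SE) and an adjusted p of 1.3e-05. The retinoic acid enzyme ALDH1A2 and the basonuclin BNC1, also markers of that layer, were not called (adjusted p = 0.47 and 0.23).

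Crystallin genes of the lens rose from near 0 counts. Crystallins are the soluble proteins that fill the fibre cells of the lens, and CRYAB also serves heart muscle as a small heat shock protein. Of 25 measured members 17 rose and 1 fell, with 14 of the rises kept and a median log2 change of 5.66 (4.41 at the bounds). With limma-voom 8 members rose, and with robust dispersions 13. Summed without CRYAB, 13 crystallins held 2.6, 2.94, 3.69 and 3.88 CPM in the Day 30 wells and 106, 833 and 349 CPM in the Day 60 wells. The Day 60 wells were all higher than the Day 30 wells and differed several-fold among themselves, with replicate 2 highest and replicate 1 lowest.

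Beta-crystallin B1 (CRYBB1) was at 0, 0.334, 0.79 and 0 CPM at Day 30 and 23.8, 216 and 99 CPM at Day 60, with log2 change 8.58 ± 1.32 (SE; adjusted p = 0.00064); other settings gave adjusted p = 0.24 with limma-voom, log2 change 9.87 with Day 30 replicate 3 left out and log2 change 7.70 with Day 60 replicate 2 left out. Beta-crystallin A1 (CRYBA1) was at 0.191, 0, 0.165 and 0 CPM at Day 30 and 17.6, 139 and 50.2 CPM at Day 60, with log2 change 9.57 ± 1.32 (SE; adjusted p = 0.00029); other settings gave adjusted p = 0.21 with limma-voom, log2 change 10.17 with Day 30 replicate 1 left out and log2 change 8.54 with Day 60 replicate 2 left out. CRYBB3 was at 0.802, 0.634, 1.45 and 1.41 CPM at Day 30 and 4.5, 33.8 and 13 CPM at Day 60, with log2 change 3.98 ± 0.67 (SE; adjusted p = 0.0013) and 3.02 with Day 60 replicate 2 left out. The same order of Day 60 wells, replicate 2 above 3 above 1, held for these genes. It also held for MIP, which is not a crystallin. The lens fibre water channel MIP had 3 counts over the Day 30 wells and 694 over the Day 60 wells, a ratio of 297 (95% counting interval 101 to 1442), and went to 2.46, 15.9 and 5.84 CPM; its call was lost with limma-voom (adjusted p = 0.053), and its log2 change was 7.12 with Day 60 replicate 2 left out and 10.92 with Day 30 replicate 2 left out. HSF4, the heat shock factor of lens, was less uneven, at 1.26, 1.73, 2.17 and 2.23 CPM at Day 30 and 5.81, 5.79 and 7.19 CPM at Day 60. HSF4 had a log2 change of 1.75 ± 0.29 (SE) and an adjusted p of 0.0011.

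Factors that act earlier in the eye field were counted on both days. SIX3 went from 1.68, 4.44, 3.98 and 1.55 CPM to 10.1, 20.5 and 25 CPM (log2 change 2.66 ± 0.58, adjusted p = 0.0076), a call lost with robust dispersions (adjusted p = 0.055). PAX6, the master factor of eye development, was higher in every Day 60 well than in every Day 30 well. It ran from 7.69 CPM on average at Day 30 to 37.6 CPM at Day 60 and was not called (adjusted p = 0.062). The lens factors MAF, PROX1 and PITX3 were not called either (adjusted p = 0.45, 0.81 and 0.92), and PROX1 and MAF are also made by other cells, heart muscle among them for PROX1.

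Promoters of 4 crystallin genes are printed in the same form, with TGCTGA or its reverse complement TCAGCA in capitals. TGCTGA is a half-site of the MAF recognition element, and MAF proteins act on crystallin genes in lens. The stretches lie at chr21:43168858-43169007 (plus strand), chr17:29246709-29246858 (plus strand), chr22:26618028-26618177 (minus strand) and chr22:25199708-25199857 (plus strand), with the first capital 82, 64, 87 and 69 bases before the start.
CRYAA: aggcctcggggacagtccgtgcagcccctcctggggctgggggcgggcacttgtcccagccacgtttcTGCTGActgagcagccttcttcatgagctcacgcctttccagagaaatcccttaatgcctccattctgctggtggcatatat
CRYBA1: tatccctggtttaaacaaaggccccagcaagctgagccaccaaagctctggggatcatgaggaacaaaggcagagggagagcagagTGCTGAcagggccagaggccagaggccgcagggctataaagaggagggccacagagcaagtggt
CRYBB1: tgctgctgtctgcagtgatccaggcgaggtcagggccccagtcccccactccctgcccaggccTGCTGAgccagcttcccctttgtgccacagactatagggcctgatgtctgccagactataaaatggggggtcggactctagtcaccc
CRYBB3: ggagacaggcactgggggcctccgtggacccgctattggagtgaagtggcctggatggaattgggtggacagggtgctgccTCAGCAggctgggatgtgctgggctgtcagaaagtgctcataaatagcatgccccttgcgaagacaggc
The 6 letters occurred in 12 of the 21 lens list promoters in the RefSeq table (57.1%), in 6 of the 26 hepatocyte list promoters, and in 14.1% of the 13692 promoters of measured genes. CRYAA rose from 0, 0, 0.197 and 0 CPM to 4.24, 66.6 and 24.9 CPM (log2 change 9.16 ± 1.70, adjusted p = 0.0028), with other settings at adjusted p = 0.28 with limma-voom, log2 change 12.89 with Day 30 replicate 3 left out and log2 change 8.03 with Day 60 replicate 2 left out. CRYAA has a near-identical copy, CRYAA2, in the annotation, and reads between the copies could be split.

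Melanin genes rose in the same wells with less spread, but the lists that hold them gave calls in both directions. The neural crest, Schwann cell and melanocyte list gave 5 rises and 4 falls among 18, with TFAP2A among the falls. With 1 well left out, its rises ran from 4 to 6 and its falls from 2 to 5. The retina and pigment epithelium list gave 4 rises and 2 falls among 17, and its rises ran from 1 to 4 with 1 well left out. With limma-voom 0 members rose in either list. Melanin is made by tyrosinase (TYR), TYRP1 and DCT in melanosomes built on PMEL. DCT was at 2.6, 5.84, 6.75 and 3.64 CPM at Day 30 and 38.6, 58.6 and 51.7 CPM at Day 60. For DCT the log2 change was 3.39 ± 0.62 (SE; adjusted p = 0.0024). TYRP1 was at 0.726, 0.801, 1.12 and 0.344 CPM at Day 30 and 16.8, 22.3 and 11.9 CPM at Day 60. For TYRP1 the log2 change was 4.49 ± 0.75 (SE; adjusted p = 0.0012). PMEL was at 11.3, 27.2, 24.7 and 6.18 CPM at Day 30 and 59.2, 84.1 and 77.4 CPM at Day 60, with log2 change 2.08 ± 0.57 (SE; adjusted p = 0.027), a call lost in 4 of the 7 runs without 1 well (adjusted p = 0.084 and 0.065 without Day 30 replicate 1 or 4, 0.072 and 0.077 without Day 60 replicate 2 or 3). The days did not overlap for these genes, and Day 30 replicates 2 and 3 were highest of their day for DCT and PMEL. Under limma-voom none of the 3 stayed called (adjusted p = 0.086 for DCT, 0.35 for TYRP1 and 0.072 for PMEL), and PMEL was also lost with robust dispersions (adjusted p = 0.15). Melanin is made in neural crest melanocytes and in the pigment epithelium of the eye. SOX10, which defines the crest lineage, was at 1.45, 0.867, 0.823 and 0.996 CPM at Day 30 and 0.702, 2.25 and 2.33 CPM at Day 60, and MITF at 128, 112, 97.8 and 118 CPM at Day 30 and 129, 107 and 114 CPM at Day 60, with no call for either. RPE65, which defines pigment epithelium, was at 0.229, 0.0667, 0.132 and 0.309 CPM at Day 30 and 0.447, 1.07 and 1.42 CPM at Day 60, with log2 change 2.39 ± 0.63 (SE; adjusted p = 0.023); its call was lost in 4 runs without 1 well and under limma-voom, with only the 7 libraries and with the replicate block (adjusted p = 0.055 to 0.095).

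Of 14 neural progenitor genes 4 rose and 1 fell, 12 had a log2 change above 0, and the median was 2.02. The rises numbered 2 without Day 60 replicate 2, SIX3 and ZIC1 were kept, and limma-voom called 1 rise. Summed over the list, the days overlapped (377 to 518 CPM at Day 30 and 379 to 443 CPM at Day 60). Of 25 neuron genes 5 rose and 1 fell, the rises numbered 1 without Day 30 replicate 4 or Day 60 replicates 2 or 3, and of the rises 1 was kept, SYT4, a synaptotagmin (2.62, 5.2 and 8.61 CPM at Day 60, log2 change 5.47 ± 1.22, adjusted p = 0.0090; adjusted p = 0.26 with limma-voom, adjusted p = 0.067 with robust dispersions and log2 change 10.36 with Day 30 replicate 2 left out). Tubulin TUBB3 and the synaptic protein SNAP25 were not called (adjusted p = 0.12 and 0.96). ZIC1, a factor of neural progenitors and crest, rose from 0.535, 1.4, 1.38 and 0.0687 CPM to 8.01, 25.3 and 30.03 CPM (log2 change 4.62 ± 0.82, adjusted p = 0.0020; adjusted p = 0.20 with limma-voom). The otic epithelium list was split, with 2 rises and 2 falls among 9 measured members. Its summed level overlapped between the days (64.0 to 71.6 CPM at Day 30 and 54.5 to 86.1 CPM at Day 60). Among the rises was OC90, a protein of the inner ear. OC90 was at 0 in the Day 30 wells and at 1.95, 2.54 and 1.01 CPM at Day 60, a rise of at least 17.6-fold (edgeR adjusted p = 0.0078, 0.45 with limma-voom and 0.10 with robust dispersions). Myeloid and lymphocyte lists were near the floor: of 6 measured myeloid genes 1 was called, lysozyme (LYZ), which fell and lost the call in 5 of the 7 runs without 1 well (adjusted p = 0.051 to 0.075), and of 2 lymphocyte genes 0 by edgeR, DESeq2 or limma-voom (0 at an unadjusted p under 0.05). The erythroid and megakaryocyte list was not, with sums of 58.8 to 71.1 CPM at Day 30 and 74.9 to 94.2 CPM at Day 60 and no overlap of days. Of its 22 members 6 were measured, and 5 of these were not called. The 1 call was the heme enzyme ALAS2, which rose from 23.5, 30.3, 24.7 and 33.9 CPM to 55.3, 49 and 38.6 CPM (log2 change 0.76 ± 0.20, adjusted p = 0.025 by edgeR). The ALAS2 call was lost in 4 of the 7 runs without 1 well (adjusted p = 0.069 to 0.11) and with robust dispersions (adjusted p = 0.050).

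The extracellular matrix changed in both directions, with more falls. Of 36 measured glycoproteins and proteoglycans 6 rose and 15 fell, and 4 and 13 of these were kept. Fibronectin (FN1), the main adhesive glycoprotein of early matrix, was at 5234, 10350, 8855 and 3530.3 CPM at Day 30 and 749, 591 and 535 CPM at Day 60. By edgeR, FN1 had a log2 change of -3.48 ± 0.45 (SE; adjusted p = 0.00015). Laminin alpha 1 (LAMA1), of embryonic basement membranes, was at 97.7, 109, 102 and 82.3 CPM at Day 30 and 13.6, 18.5 and 15.4 CPM at Day 60. By edgeR, LAMA1 had a log2 change of -2.63 ± 0.15 (SE; adjusted p = 7.4e-08). Tenascin C (TNC), made in developing and injured heart, was at 118, 177, 138 and 67.4 CPM at Day 30 and 20.9, 25.3 and 24.3 CPM at Day 60. TNC had a log2 change of -2.41 ± 0.35 (SE) and an adjusted p of 0.00047. The 2 days stood apart for the 3 genes, and for FN1 and TNC Day 30 replicate 2 was highest and replicate 4 lowest, the order seen for the epithelial genes, whereas LAMA1 varied little within a day. Versican (VCAN), the proteoglycan of cardiac jelly, was at 669.8, 526, 582 and 650.5 CPM at Day 30 and 216, 228 and 232 CPM at Day 60. By edgeR, VCAN had a log2 change of -1.43 ± 0.25 (SE; adjusted p = 0.0020). The part that epithelium or endoderm in the Day 30 wells had in these falls was not tested.

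A smaller set of matrix genes rose. Asporin (ASPN), a leucine-rich proteoglycan of valve and tendon, was at 4.16, 6.54, 6.78 and 4.29 CPM at Day 30 and 33.2, 36.3 and 34 CPM at Day 60. For ASPN the log2 change was 2.66 ± 0.16 (SE; adjusted p = 1.2e-07). Elastin (ELN), the core of elastic fibres, was at 0.191, 1.37, 3.75 and 0.24 CPM at Day 30 and 19.8, 18.5 and 14.4 CPM at Day 60, with log2 change 3.63 ± 0.53 (SE; adjusted p = 0.00045), and its log2 change was 4.83 with Day 30 replicate 3 left out. The days did not overlap for either, and Day 30 replicate 3 was the highest Day 30 well for both. Lumican (LUM), of the same family as ASPN, fell instead (39.6, 68, 61.2 and 31.9 CPM at Day 30 and 18.3, 17.4 and 14.5 CPM at Day 60, log2 change -1.58 ± 0.24, adjusted p = 0.00052). Fibroblast markers as a list gave 2 rises and 4 falls among 18 (falls 2 without Day 30 replicates 2 or 3 or Day 60 replicates 2 or 3), and the broad mesenchymal gene VIM was not called (adjusted p = 0.62).

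Of 26 collagen genes 2 rose and 7 fell, with 4 falls when Day 30 replicate 2 or Day 60 replicate 3 was left out. The cartilage and early embryonic collagen COL2A1 was at 804, 695, 642 and 611 CPM at Day 30 and 184, 173 and 146 CPM at Day 60. By edgeR, COL2A1 had a log2 change of -2.04 ± 0.19 (SE; adjusted p = 1.2e-05). COL18A1, the source of endostatin, was at 1120.2, 1033, 969 and 1075 CPM at Day 30 and 621, 662 and 452 CPM at Day 60, with log2 change -0.86 ± 0.13 (SE; adjusted p = 0.00055), and the basement membrane chain COL4A4 at 8.33, 9.37, 10.9 and 5.08 CPM at Day 30 and 0.894, 1.7 and 2.21 CPM at Day 60 (log2 change -2.39 ± 0.34, adjusted p = 0.00040). For these chains the ranges of both days were separate. The abundant fibroblast collagens COL1A1 and COL3A1 were not called (adjusted p = 0.051 and 0.13). Every Day 60 well was below every Day 30 well for COL1A1, and the days overlapped for COL3A1.

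**Figure D3:**
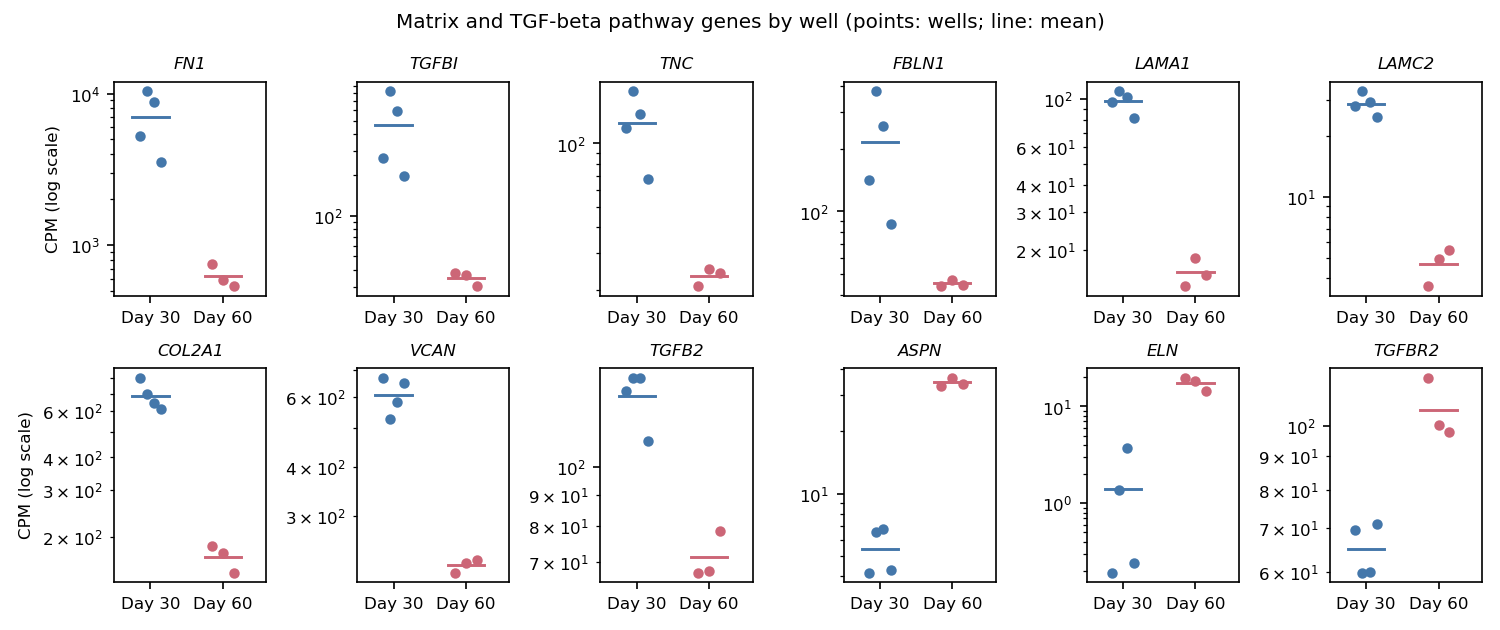
Level of matrix and TGF-beta pathway genes in each well, in CPM on a log axis, with 1 point per well and a bar at the mean of each day. All Day 60 wells are below all Day 30 wells for the 9 genes from FN1 to TGFB2, and above them for ASPN, ELN and TGFBR2.

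Ligands and antagonists of the TGF-beta and BMP pathway, which steers matrix production and heart patterning, fell more often than they rose. Of 31 measured members 1 rose and 14 fell, and 9 falls were kept; without Day 60 replicate 3 the falls numbered 9. Among ligands, TGFB2 was at 133, 139.9, 140.0 and 111 CPM at Day 30 and 67.2, 67.5 and 78.7 CPM at Day 60, with log2 change -0.88 ± 0.14 (SE; adjusted p = 0.0010), and TGFB3 at 15.5, 13.5, 12.5 and 16.6 CPM at Day 30 and 6.8, 6.96 and 5.58 CPM at Day 60. For TGFB3 the log2 change was -1.17 ± 0.19 (SE; adjusted p = 0.0011). BMP2 was at 62.9, 58.8, 52.3 and 59.9 CPM at Day 30 and 37.9, 23.2 and 35.3 CPM at Day 60. For BMP2 the log2 change was -0.86 ± 0.17 (SE; adjusted p = 0.0042). All Day 60 wells were below all Day 30 wells for the 3 ligands. Among extracellular modulators, BMPER went from 16, 15.4, 17 and 15.4 CPM to 3.73, 2.69 and 4.7 CPM (log2 change -2.10 ± 0.33, adjusted p = 0.00069) and follistatin (FST) from 16.2, 16.7, 16.9 and 17.9 CPM to 9.99, 8.84 and 9.15 CPM (log2 change -0.86 ± 0.17, adjusted p = 0.0037). The secreted target TGFBI was at 267, 824, 588 and 196 CPM at Day 30 and 37.9, 36.8 and 30.2 CPM at Day 60, with log2 change -3.74 ± 0.43 (SE; adjusted p = 5.1e-05), with Day 30 replicates 2 and 3 highest. The single rise was the receptor TGFBR2, at 69.6, 59.9, 60.1 and 71 CPM at Day 30 and 118, 100.4 and 98 CPM at Day 60. For TGFBR2 the log2 change was 0.70 ± 0.10 (SE; adjusted p = 0.00052). BMP5 and BMP7, the ligands with the highest counts in the list, were not called (adjusted p = 0.32 and 0.89). Every Day 60 well was narrowly below every Day 30 well for BMP5, and the days overlapped for BMP7.

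The WNT list was mixed, with 4 rises and 5 falls among 34. Its rises numbered 2 without Day 60 replicate 1, and its falls 3 without Day 30 replicates 2 or 3 or Day 60 replicates 1 or 3. The WNT enhancer RSPO3 fell from 13.8, 18, 14.7 and 9.86 CPM to 3.77, 4.39 and 4.83 CPM (log2 change -1.70 ± 0.26, adjusted p = 0.00064) and the receptor FZD2 from 141, 139, 126 and 123 CPM to 85.3, 95.8 and 77.6 CPM (log2 change -0.62 ± 0.11, adjusted p = 0.0019). The secreted antagonist SFRP5 rose from 28.6, 31, 34 and 35.2 CPM to 59.5, 53.5 and 47.7 CPM (log2 change 0.73 ± 0.11, adjusted p = 0.00069), and so did DKK3, a secreted protein of the Dickkopf family, from 452, 472, 445 and 502 CPM to 690.3, 625 and 602 CPM (log2 change 0.45 ± 0.09, adjusted p = 0.0041). In plasminogen activation, which drives matrix breakdown, the activator PLAU fell from 8.82, 16.6, 18.4 and 6.8 CPM to 5.3, 3.72 and 2.08 CPM (log2 change -1.77 ± 0.38, adjusted p = 0.0070).

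In the sarcomere, a few adult isoforms rose. Of 21 thick and thin filament genes 5 rose and 1 fell. Cardiac troponin I (TNNI3), the adult inhibitory subunit, was at 84.3, 78.4, 66.1 and 83.5 CPM at Day 30 and 236, 238 and 247 CPM at Day 60. TNNI3 had a log2 change of 1.62 ± 0.14 (SE) and an adjusted p of 5.8e-06. The ventricular light chain MYL2 was at 157, 161, 119 and 196 CPM at Day 30 and 428, 436 and 460.2 CPM at Day 60. MYL2 had a log2 change of 1.48 ± 0.21 (SE) and an adjusted p of 0.00039. MYH7B, a myosin heavy chain whose transcript also carries a muscle microRNA, was at 289.7, 192, 197 and 242 CPM at Day 30 and 542, 499 and 491 CPM at Day 60. By edgeR, MYH7B had a log2 change of 1.15 ± 0.12 (SE; adjusted p = 3.3e-05). Each of the 3 genes was higher in every Day 60 well. Slow skeletal troponin I (TNNI1), the fetal subunit, was at 3732, 3751, 3641 and 4123 CPM at Day 30 and 5036, 5019 and 4906 CPM at Day 60, and MYL7, the atrial light chain, at 5863, 5865, 4898 and 6574 CPM at Day 30 and 6700.0, 6308 and 6896 CPM at Day 60. Neither was called (log2 change 0.39 ± 0.13, adjusted p = 0.079 and log2 change 0.19 ± 0.14, adjusted p = 0.48). TNNI1 was higher in every Day 60 well than in every Day 30 well, and the days overlapped for MYL7. The heavy chains MYH7 and MYH6, near-identical neighbours whose reads can be shared, were not called (adjusted p = 0.80 and 0.90).

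Z-disc and M-band genes rose in 9 and fell in 3 of 28, with 5 rises when Day 30 replicate 3 or Day 60 replicate 1 was left out. The falls in that list numbered 1 without Day 30 replicate 1 or Day 60 replicates 1 or 3 and 5 without Day 30 replicate 3. Desmin (DES), the intermediate filament that links Z-discs, was at 13.4, 11.7, 10.6 and 12.2 CPM at Day 30 and 37.1, 30.7 and 29.8 CPM at Day 60. DES had a log2 change of 1.44 ± 0.15 (SE) and an adjusted p of 1.8e-05. CRYAB, its chaperone, was at 343, 348, 265 and 329 CPM at Day 30 and 705, 713 and 699.7 CPM at Day 60. For CRYAB the log2 change was 1.14 ± 0.13 (SE; adjusted p = 4.0e-05). NRAP, which assembles myofibrils at the cell ends, was at 8.9, 5.4, 4.84 and 9.24 CPM at Day 30 and 16.8, 23.1 and 19 CPM at Day 60. By edgeR, NRAP had a log2 change of 1.47 ± 0.23 (SE; adjusted p = 0.00075). ANKRD1, a stretch-responsive protein of the titin spring, went the other way, at 603, 555, 438 and 702 CPM at Day 30 and 242, 351 and 274 CPM at Day 60. For ANKRD1 the log2 change was -0.99 ± 0.18 (SE; adjusted p = 0.0021). The days were separate for these 4 genes, and the CRYAB wells of Day 60 were nearly equal, unlike the other crystallins.

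**Figure D4:**
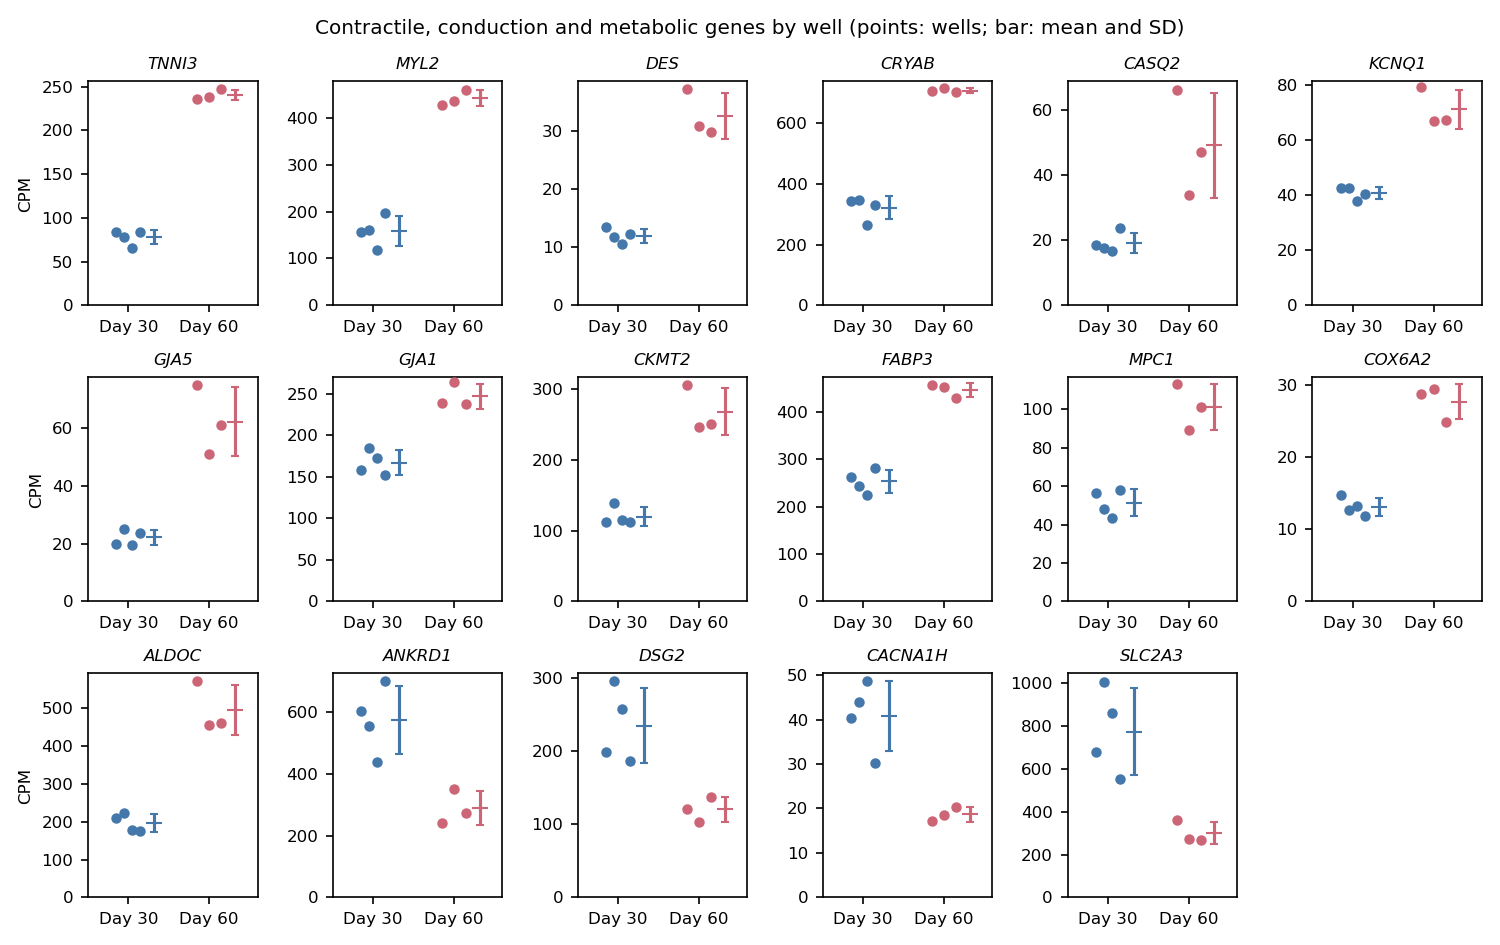
Level of 17 contractile, channel, junction and metabolic genes in each well, in CPM on a linear axis that starts at 0, with 1 point per well and a bar with whiskers at the mean and SD of each day. The 13 genes from TNNI3 to ALDOC are higher in every Day 60 well, and ANKRD1, DSG2, CACNA1H and SLC2A3 are lower.

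Electrical genes showed a limited set of rises. In the 3 channel and junction lists, sodium and calcium channels gave 4 rises and 1 fall among 17, potassium channels 4 and 1 among 24, and the intercalated disc 2 and 2 among 19. The sodium and calcium channel rises numbered 2 without Day 30 replicate 3 or Day 60 replicates 1 or 2. KCNQ1, which carries a slow repolarising current, was at 42.7, 42.5, 38 and 40.3 CPM at Day 30 and 79.2, 66.9 and 67.4 CPM at Day 60. By edgeR, KCNQ1 had a log2 change of 0.80 ± 0.10 (SE; adjusted p = 0.00013). CACNA1H, a T-type calcium channel of fetal heart, fell from 40.3, 43.9, 48.8 and 30.2 CPM to 17.2, 18.4 and 20.4 CPM (log2 change -1.13 ± 0.24, adjusted p = 0.0072). KCNJ2, the main inward rectifier, was low and fell from 4.05, 6.4, 7.14 and 2.99 CPM to 1.21, 1.84 and 1.23 CPM (log2 change -1.85 ± 0.45, adjusted p = 0.015), a call lost in 3 settings (adjusted p = 0.070 with Day 60 replicate 1 left out, adjusted p = 0.073 with Day 60 replicate 3 left out and adjusted p = 0.075 with limma-voom). The pacemaker channel HCN4 was not called (adjusted p = 0.84).

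At the cell junctions, connexin 40 (GJA5), of atrium and conduction system, was at 20.1, 25.2, 19.7 and 23.8 CPM at Day 30 and 74.9, 51 and 61.1 CPM at Day 60, with log2 change 1.49 ± 0.19 (SE; adjusted p = 0.00017), and connexin 43 (GJA1) at 159, 185, 172 and 152 CPM at Day 30 and 239, 264 and 238 CPM at Day 60. GJA1 had a log2 change of 0.56 ± 0.11 (SE) and an adjusted p of 0.0031. The desmosomal cadherins DSG2 and DSC2, which epithelia share with heart muscle, fell, DSG2 from 198, 296, 257 and 186 CPM to 121, 102 and 137 CPM (log2 change -0.96 ± 0.16, adjusted p = 0.00097) and DSC2 from 76.2, 104, 90.6 and 75.6 CPM to 50.3, 50.7 and 61.7 CPM (log2 change -0.67 ± 0.14, adjusted p = 0.0059). The highest Day 30 wells for DSG2 and DSC2 were replicates 2 and 3, as for the epithelial genes, and the part of epithelium in their fall was not tested.

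Calcium cycling genes gave 3 rises and 5 falls among 25. The rises numbered 1 without Day 60 replicate 1, and the falls 2 without Day 30 replicate 2 or Day 60 replicates 1 or 3 and 3 without Day 30 replicate 3 or Day 60 replicate 2. Calsequestrin 2 (CASQ2), which stores calcium in the sarcoplasmic reticulum, was at 18.6, 17.5, 16.6 and 23.6 CPM at Day 30 and 66.2, 33.9 and 47.1 CPM at Day 60. CASQ2 had a log2 change of 1.36 ± 0.22 (SE) and an adjusted p of 0.0011. Sarcolipin (SLN), an atrial inhibitor of the calcium pump, fell from 11.6, 29.4, 18.9 and 5.12 CPM to 5.11, 2.21 and 2.33 CPM (log2 change -2.33 ± 0.46, adjusted p = 0.0042), and ORAI1, a store-operated channel, from 30.1, 27.2, 33.2 and 26.2 CPM to 18.3, 16 and 19.7 CPM (log2 change -0.70 ± 0.14, adjusted p = 0.0041). The pump ATP2A2 and the release channel RYR2 were not called (adjusted p = 0.18 and 0.42).

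Atrial and ventricular lists gave calls in both directions, and the nodal list gave rises. Of 14 atrial genes 6 rose and 2 fell, of 12 ventricular genes 3 rose and 2 fell, and of 14 nodal genes 5 rose and 0 fell. The natriuretic peptide NPPA, of atrium and fetal heart, was at 98.5, 129, 93 and 192 CPM at Day 30 and 311, 220.2 and 235 CPM at Day 60. For NPPA the log2 change was 0.99 ± 0.21 (SE; adjusted p = 0.0070). NR2F1, an atrial transcription factor that neural and eye cells also use, was at 2.6, 3.47, 7.87 and 1.75 CPM at Day 30 and 19.3, 40.6 and 39.8 CPM at Day 60, with log2 change 3.08 ± 0.48 (SE; adjusted p = 0.00069) and 3.67 with Day 30 replicate 3 left out. SHOX2, a factor of the sinus node also made outside the heart, was at 0.0764, 0, 0.263 and 0.0344 CPM at Day 30 and 11.7, 4.09 and 5.93 CPM at Day 60, with log2 change 6.20 ± 0.72 (SE; adjusted p = 6.2e-05) and 7.51 with Day 30 replicate 3 left out. Day 60 replicate 1 was highest for SHOX2 and lowest for NR2F1. FHL2, a LIM protein of the sarcomere counted in the ventricular list, was at 1087, 1076, 1055 and 1130.1 CPM at Day 30 and 2625, 1899 and 2510.5 CPM at Day 60. FHL2 had a log2 change of 1.11 ± 0.15 (SE) and an adjusted p of 0.00029. The nodal factors TBX3 and ISL1 went the other way, lower in every Day 60 well than in every Day 30 well, but edgeR did not call them. TBX3 had a log2 change of -0.78 ± 0.25 (SE; adjusted p = 0.061) and ISL1 of -0.52 ± 0.22 (SE; adjusted p = 0.15). Of the cardiac transcription factors, GATA5, an early endocardial and myocardial factor, fell from 23.7, 18.7, 22.7 and 17.3 CPM to 8.78, 8.62 and 8.17 CPM (log2 change -1.27 ± 0.20, adjusted p = 0.00067) and TBX2 from 76.7, 67.7, 75.3 and 68.6 CPM to 44.6, 49.2 and 41.5 CPM (log2 change -0.68 ± 0.11, adjusted p = 0.00086).

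Energy metabolism changed at a few genes. Of 10 genes of the creatine phosphate system and the oxygen store 4 rose and 1 fell. Mitochondrial creatine kinase (CKMT2) was at 112, 139, 115 and 112 CPM at Day 30 and 306, 246 and 251 CPM at Day 60. By edgeR, CKMT2 had a log2 change of 1.16 ± 0.16 (SE; adjusted p = 0.00031). Muscle creatine kinase (CKM) was at 330.2, 272, 242 and 303 CPM at Day 30 and 682, 472 and 497 CPM at Day 60. For CKM the log2 change was 0.94 ± 0.14 (SE; adjusted p = 0.00060). Myoglobin (MB), which stores oxygen, was at 153, 149, 150.3 and 165 CPM at Day 30 and 274, 259 and 263 CPM at Day 60. By edgeR, MB had a log2 change of 0.78 ± 0.11 (SE; adjusted p = 0.00038). The days did not overlap for these genes. The creatine transporter SLC6A8 rose too (log2 change 0.61 ± 0.12, adjusted p = 0.0033).

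For fatty acids, lipoprotein lipase (LPL) was at 0.993, 1.33, 1.38 and 1.72 CPM at Day 30 and 5.23, 7.89 and 6.75 CPM at Day 60, with log2 change 2.28 ± 0.24 (SE; adjusted p = 2.4e-05), and the fatty acid carrier FABP3 at 262, 244, 224 and 282 CPM at Day 30 and 456, 452 and 429 CPM at Day 60. By edgeR, FABP3 had a log2 change of 0.82 ± 0.14 (SE; adjusted p = 0.0011). All Day 60 wells were higher for both. The list gave 4 rises and 3 falls among 37, and the regulators PPARA and PPARGC1A were not called (adjusted p = 0.67 and 0.76). In glycolysis, with 6 rises and 1 fall among 27, aldolase C (ALDOC) was at 209, 223, 178 and 176 CPM at Day 30 and 572, 455 and 461 CPM at Day 60, with log2 change 1.33 ± 0.15 (SE; adjusted p = 3.3e-05), and the glucose transporter SLC2A3 at 679, 1009, 862 and 552 CPM at Day 30 and 362, 274 and 270.5 CPM at Day 60. By edgeR, SLC2A3 had a log2 change of -1.36 ± 0.18 (SE; adjusted p = 0.00019). ALDOC was higher in every Day 60 well and SLC2A3 lower, with Day 30 replicates 2 and 3 highest for SLC2A3. The glycolysis rises numbered 3 without Day 30 replicate 3 or Day 60 replicate 1, and the fatty acid falls 1 without Day 30 replicates 2, 3 or 4 or Day 60 replicates 1, 2 or 3.

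The respiratory chain moved by small steps. Of 35 nuclear genes of complex I, 1 was called (0 with any 1 well left out), yet 35 had a log2 change above 0, with a median of 0.22; of all genes 48.8% were above 0. In complexes II to V, 4 of 41 rose and 38 were above 0, with a median of 0.21; the rises numbered 1 without Day 30 replicate 1 or Day 60 replicate 1 and 2 without Day 30 replicates 3 or 4 or Day 60 replicate 3. The heart and muscle subunit COX6A2 was the kept call, at 14.8, 12.6, 13.2 and 11.9 CPM at Day 30 and 28.7, 29.4 and 24.9 CPM at Day 60. COX6A2 had a log2 change of 1.08 ± 0.17 (SE) and an adjusted p of 0.00071. Genes of one complex share their libraries, so the count by sign is a description; over the scalings tried, the median of all genes lay between -0.01 and 0.03. The mitochondrial pyruvate carrier MPC1 was at 56.4, 47.9, 43.5 and 57.9 CPM at Day 30 and 113, 89.3 and 101 CPM at Day 60. For MPC1 the log2 change was 0.98 ± 0.13 (SE; adjusted p = 0.00020).

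Genes of mitosis rose, and genes of DNA replication gave no call. Of 30 mitosis genes 13 rose and 0 fell, all 30 had a log2 change above 0, and the median was 0.66. The number of rises ran from 5 to 14 with 1 well left out (7 if that was Day 30 replicate 3, and 5 and 6 if it was Day 60 replicate 1 and 3), and 5 were kept each time. Topoisomerase TOP2A, which untangles chromosomes, was at 168, 185, 152 and 176 CPM at Day 30 and 391, 264 and 374 CPM at Day 60. TOP2A had a log2 change of 1.01 ± 0.22 (SE) and an adjusted p of 0.0078. The kinase CDK1, which drives entry into mitosis, was at 34.6, 40.4, 31.5 and 45.8 CPM at Day 30 and 75.9, 54.5 and 74.7 CPM at Day 60. CDK1 had a log2 change of 0.84 ± 0.17 (SE) and an adjusted p of 0.0054. Anillin (ANLN), of the cleavage furrow, was at 91.9, 111, 84.7 and 116 CPM at Day 30 and 207, 149.7 and 198 CPM at Day 60. For ANLN the log2 change was 0.87 ± 0.16 (SE; adjusted p = 0.0030). Day 60 replicate 2 was the lowest of its day for the 3 genes and still above every Day 30 well. Of 30 genes of DNA replication 0 were called by edgeR, DESeq2 or limma-voom (5 had an unadjusted edgeR p under 0.05), and 15 were above and 15 below 0, with a median near 0. The replicative helicase subunit MCM3 and the clamp PCNA had adjusted p = 0.40 and 0.79, and the proliferation marker MKI67, with a log2 change of 0.55, was not called (adjusted p = 0.14).

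The list of cell cycle exit and p53 targets, which mixes kinase inhibitors, D cyclins and genes of cell death, gave 2 rises and 8 falls among 25. The falls numbered 3 without Day 30 replicate 2 or Day 60 replicate 3 and 4 without Day 60 replicate 1, and 2 were kept. The rises were the inhibitor CDKN2C and the cyclin CCND3, whose call was lost in 5 of the 7 runs without 1 well (adjusted p = 0.060 to 0.090). CDKN2B was at 29.7, 38, 36.9 and 24.6 CPM at Day 30 and 10.2, 9.29 and 5.11 CPM at Day 60, with log2 change -1.98 ± 0.30 (SE; adjusted p = 0.00053), and CDKN2C at 4.97, 7.67, 5.27 and 3.85 CPM at Day 30 and 15.4, 14.5 and 14 CPM at Day 60. For CDKN2C the log2 change was 1.43 ± 0.22 (SE; adjusted p = 0.00066). The pair of related inhibitors thus went in opposite directions, with no overlap of days. CDKN1A, the main p53 target in the list, was not called (adjusted p = 0.88).

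Oncofetal genes, active in embryo and tumour and silenced in most adult tissue, fell in 14 of 19 members, 10 of them kept, and none rose. AFP belongs to this list too. The chromatin protein HMGA2 was at 150.1, 173, 182 and 135 CPM at Day 30 and 54.4, 42.4 and 50.5 CPM at Day 60. By edgeR, HMGA2 had a log2 change of -1.71 ± 0.14 (SE; adjusted p = 3.9e-06). The RNA-binding protein IGF2BP1 was at 233, 212, 201 and 218 CPM at Day 30 and 149, 144 and 115 CPM at Day 60. For IGF2BP1 the log2 change was -0.67 ± 0.11 (SE; adjusted p = 0.0011). The transcription factor ARID3A was at 121, 125, 115 and 113 CPM at Day 30 and 58.5, 58.8 and 63.9 CPM at Day 60. By edgeR, ARID3A had a log2 change of -0.97 ± 0.12 (SE; adjusted p = 7.4e-05). LIN28B, which blocks the let-7 microRNAs, fell from 18.8, 19.1, 19.1 and 18.1 CPM to 9.51, 8.14 and 10.8 CPM (log2 change -0.98 ± 0.22, adjusted p = 0.010). For these 4 genes no Day 60 well overlapped the Day 30 wells.

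**Figure D5:**
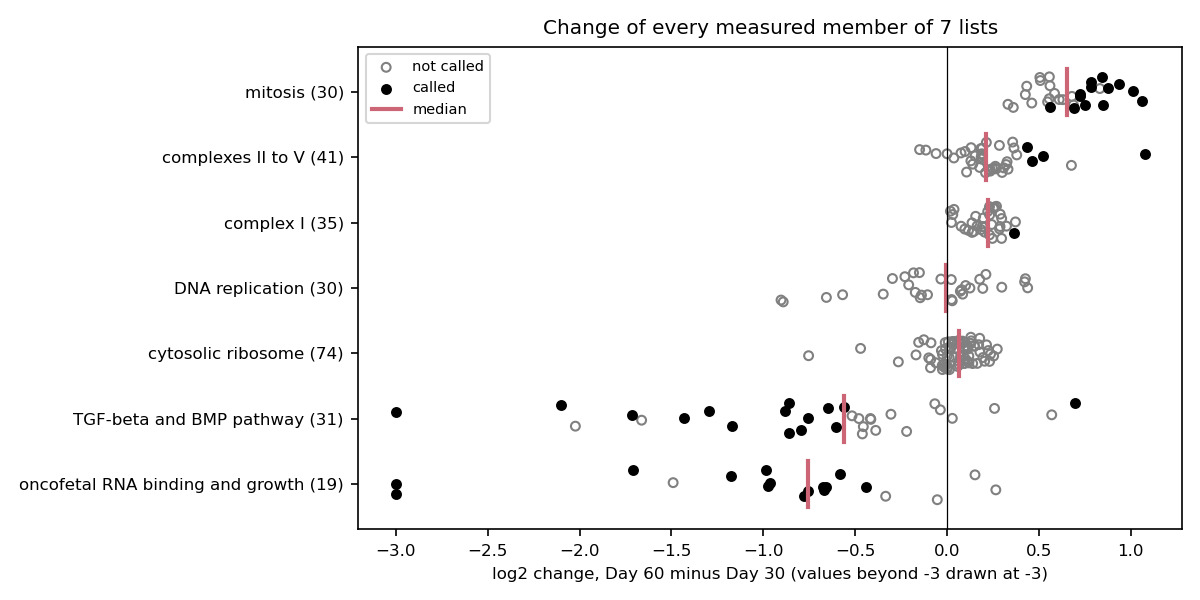
Log2 change, Day 60 minus Day 30, of each measured member (points) of 7 function lists, with called members filled, other members open, a bar at the median and a solid line at no change; values beyond -3 are drawn at -3. Mitosis and complex I members lie mostly above 0, ribosome and DNA replication members lie on both sides of 0, and TGF-beta and oncofetal members lie mostly below 0.

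The integrated stress response and immediate early lists gave more falls than rises. The integrated stress response list, which holds amino acid enzymes and transporters, gave 1 rise and 7 falls among 25, and the falls numbered 3, 4 and 2 when Day 30 replicate 2, Day 30 replicate 3 and Day 60 replicate 3 were left out. The amino acid transporter SLC7A5 was at 66.5, 139, 113 and 59.8 CPM at Day 30 and 16.6, 13 and 8.96 CPM at Day 60, with log2 change -2.88 ± 0.30 (SE; adjusted p = 2.5e-05), with Day 30 replicates 2 and 3 highest. The rise was NUPR1, at 0.649, 0.834, 0.625 and 0 CPM at Day 30 and 3.89, 5.56 and 1.1 CPM at Day 60 (log2 change 2.72 ± 0.58, adjusted p = 0.0067), lost with limma-voom (adjusted p = 0.099). The regulator ATF4 was not called (adjusted p = 0.33). Of 23 immediate early genes 6 fell and 0 rose, with 3, 2 and 1 falls when Day 30 replicate 2, Day 60 replicate 1 and Day 60 replicate 3 were left out, and ATF3 was the kept call, at 28.5, 40.7, 32.1 and 29.2 CPM at Day 30 and 8.46, 10.9 and 12.5 CPM at Day 60. For ATF3 the log2 change was -1.62 ± 0.26 (SE; adjusted p = 0.00082). The stress cytokine GDF15 was at 19.3, 16.5, 19.1 and 12.9 CPM at Day 30 and 5.43, 4.57 and 7.29 CPM at Day 60, with log2 change -1.55 ± 0.27 (SE; adjusted p = 0.0017), and endothelin 1 (EDN1) fell from 8.02, 9.94, 9.77 and 6.29 CPM to 2.49, 2.95 and 2.11 CPM (log2 change -1.76 ± 0.28, adjusted p = 0.00073). Of 13 muscle ubiquitin ligases and atrophy genes 3 rose and 0 fell (rises 1 without Day 60 replicate 1), and the ligase TRIM63 went from 207, 186, 175 and 211 CPM to 304, 304 and 276 CPM (log2 change 0.60 ± 0.11, adjusted p = 0.0032).

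Nuclear receptors gave calls in both directions, and clock genes gave rises. Of 25 receptors 6 rose and 3 fell, with falls numbering 1 without Day 30 replicates 1, 2, 3 or 4 or Day 60 replicate 3. The mineralocorticoid receptor (NR3C2) was at 5.84, 3.6, 5.73 and 5.74 CPM at Day 30 and 13.5, 8.73 and 11.9 CPM at Day 60. NR3C2 had a log2 change of 1.12 ± 0.23 (SE) and an adjusted p of 0.0054. PPARD, a receptor for fatty acids, was at 56.4, 43.9, 54.3 and 55 CPM at Day 30 and 95.3, 83.8 and 77.9 CPM at Day 60. For PPARD the log2 change was 0.71 ± 0.11 (SE; adjusted p = 0.00093). The Day 60 wells were higher for both. Of 17 clock genes 5 rose and 0 fell (rises 3 without Day 30 replicate 3): PER3, a repressor of the clock, was at 39.3, 40.2, 43.4 and 39.3 CPM at Day 30 and 77.2, 67 and 87.5 CPM at Day 60, with log2 change 0.93 ± 0.12 (SE; adjusted p = 0.00019), and the activator NPAS2 at 7.33, 5.84, 5.43 and 9.17 CPM at Day 30 and 25.8, 17.5 and 18.9 CPM at Day 60. By edgeR, NPAS2 had a log2 change of 1.58 ± 0.20 (SE; adjusted p = 0.00017). The hour of collection was not analysed here, and PER1 and CLOCK were not called (adjusted p = 0.80 and 0.57). In adrenergic and G-protein signalling, with 4 rises and 0 falls among 24, the receptor kinase GRK5 rose from 55.1, 46.3, 45.7 and 49.1 CPM to 96.7, 76.5 and 84.8 CPM (log2 change 0.81 ± 0.12, adjusted p = 0.00043) and RGS6, which dampens muscarinic signals, from 5.96, 5.24, 5.99 and 4.53 CPM to 13.5, 10.9 and 14.2 CPM (log2 change 1.25 ± 0.19, adjusted p = 0.00068).

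Lists of ribosome, proteasome and HOX genes gave no call in edgeR's test. It called 0 of 74 genes of the cytosolic ribosome (median log2 change 0.07), of which 1 had an unadjusted p under 0.05. It called 0 of 40 genes of the mitochondrial ribosome (median 0.10), of which 3 had an unadjusted p under 0.05. Of 30 proteasome genes it called 0 (median 0.01), and 1 had an unadjusted p under 0.05. Of 16 HOX genes, which pattern the body axis, it called 0 (median -0.10), and 0 had an unadjusted p under 0.05. DESeq2 called 1 proteasome gene and none in the other 3 lists, and limma-voom called 0 in all of them.

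Heat shock, hypoxia, interferon and cholesterol genes gave a few calls each. Of 21 heat shock genes 5 rose and 0 fell (rises 3 without Day 30 replicate 3 or Day 60 replicates 1 or 3), and CRYAB and HSPB6, small heat shock proteins of muscle, were the calls kept with each well left out. HSPB6 was at 7.72, 7.04, 8.03 and 4.88 CPM at Day 30 and 16.9, 17 and 13.8 CPM at Day 60. HSPB6 had a log2 change of 1.20 ± 0.21 (SE) and an adjusted p of 0.0019. Of 21 hypoxia response genes 4 rose and 0 fell (rises 1 without Day 30 replicate 3 or Day 60 replicate 1 and 2 without Day 30 replicates 1, 2 or 4 or Day 60 replicate 2), with the oxygen sensor EGLN3 kept, at 131, 159.9, 131 and 147 CPM at Day 30 and 374, 266 and 221 CPM at Day 60 (log2 change 1.02 ± 0.16, adjusted p = 0.00092). Of 22 interferon response genes 3 rose and 0 fell (rises 5 without Day 60 replicate 1), and all 3 rises were kept. They were IFIT2, an inhibitor of viral translation (log2 change 2.02 ± 0.44, adjusted p = 0.0078), the RNA sensor IFIH1 (log2 change 1.16 ± 0.24, adjusted p = 0.0056; adjusted p = 0.058 with limma-voom) and IFI44, with 1 count over the Day 30 wells and 55 over the Day 60 wells, a ratio of 70.5 (95% counting interval 12.1 to 2836; adjusted p = 0.20 with limma-voom). Of 25 cholesterol genes 4 rose and 1 fell (rises 1 without Day 30 replicate 3 or Day 60 replicate 3), and the kept calls pointed both ways, with INSIG1, a brake on sterol synthesis, at 67, 52.7, 55.8 and 54.4 CPM at Day 30 and 108, 85.3 and 92.8 CPM at Day 60 (log2 change 0.73 ± 0.12, adjusted p = 0.0015) and the sterol desaturase SC5D at 500.4, 361, 434 and 585 CPM at Day 30 and 227, 226 and 239.9 CPM at Day 60 (log2 change -1.03 ± 0.14, adjusted p = 0.00023). Of 20 genes of DNA methylation and Polycomb repression 2 rose and 2 fell, and the kept rises were the histone methyltransferase EZH1 (log2 change 0.42 ± 0.10, adjusted p = 0.011) and the Polycomb reader CBX7 (log2 change 0.62 ± 0.12, adjusted p = 0.0039).

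Cartilage and glial markers moved in both directions. Of 21 cartilage and bone genes 2 rose and 6 fell, with falls numbering 3 without Day 60 replicate 1. SOX9, which directs cartilage and is also made in endoderm and neural cells, was at 16.9, 31.3, 31.1 and 14.5 CPM at Day 30 and 5.36, 9.8 and 8.33 CPM at Day 60 (log2 change -1.58 ± 0.30, adjusted p = 0.0033). The matrix link protein HAPLN1, also of early heart, was at 36.2, 54.8, 45.5 and 32.4 CPM at Day 30 and 12.4, 10.02 and 15.2 CPM at Day 60 (log2 change -1.75 ± 0.22, adjusted p = 0.00014), and the minor cartilage collagen COL9A2 at 2.83, 9.27, 11.7 and 2.61 CPM at Day 30 and 30.3, 64.8 and 50.6 CPM at Day 60 (log2 change 2.87 ± 0.66, adjusted p = 0.010; adjusted p = 0.063 with limma-voom and adjusted p = 0.090 with robust dispersions). Of 9 glial genes 3 rose and 1 fell, and 1 of the rises was GJA1, which heart muscle makes. The glutamate transporters differed, SLC1A2 at 6.65, 4.84, 7.73 and 9.17 CPM at Day 30 and 33.8, 12.4 and 25 CPM at Day 60 (log2 change 1.74 ± 0.31, adjusted p = 0.0021) and SLC1A3 at 107, 94.7, 92.2 and 113 CPM at Day 30 and 42.4, 44.9 and 41 CPM at Day 60 (log2 change -1.25 ± 0.11, adjusted p = 5.8e-06). The calcium-binding protein S100B was at 0, 0, 0.0658 and 0.0687 CPM at Day 30 and 1.56, 2.98 and 1.92 CPM at Day 60 (log2 change 5.80 ± 1.00, adjusted p = 0.0015; adjusted p = 0.22 with limma-voom). Smooth muscle markers gave 4 rises and 1 fall among 17, 1 of the rises being DES, which heart muscle makes.

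Of the 2060 called genes, 1661 were in none of the lists. The largest rise in CPM among these was that of RNR2, the large mitochondrial ribosomal RNA, at 19659, 20721, 19529 and 20686 CPM at Day 30 and 31158, 26610 and 35808 CPM at Day 60. RNR2 had a log2 change of 0.63 ± 0.12 (SE) and an adjusted p of 0.0030. The small one, RNR1, was at 2520.4, 2563, 2172 and 2351 CPM at Day 30 and 2869.7, 3606 and 4121 CPM at Day 60, with log2 change 0.56 ± 0.16 (SE; adjusted p = 0.033), and lost the call in 6 of the 7 runs without 1 well (adjusted p = 0.051 to 0.16). The mitochondrial transfer RNA TRNE was at 518, 483, 396 and 449.8 CPM at Day 30 and 939, 773 and 737 CPM at Day 60. TRNE had a log2 change of 0.82 ± 0.15 (SE) and an adjusted p of 0.0026. These RNAs were higher in every Day 60 well. The libraries were made from poly(A) RNA, and the part of library composition or RNA quality in these rises was not tested. CLIC4, an intracellular chloride channel protein, was at 1011, 1015, 899 and 1074 CPM at Day 30 and 1631, 1176 and 1358 CPM at Day 60, with log2 change 0.47 ± 0.12 (SE; adjusted p = 0.017), and lost the call in 2 runs (adjusted p = 0.059 with Day 30 replicate 3 left out and 0.096 with Day 60 replicate 1 left out). KIDINS220, a scaffold of neurotrophin signalling, was at 581, 481, 489 and 648 CPM at Day 30 and 881, 768 and 948 CPM at Day 60, with log2 change 0.65 ± 0.15 (SE; adjusted p = 0.010), and lost the call in 1 run (adjusted p = 0.056 with Day 60 replicate 3 left out). Both were higher in every Day 60 well. The amyloid precursor relative APLP2 was lower, at 1434, 1500.5, 1358 and 1375 CPM at Day 30 and 1144, 1008 and 1067 CPM at Day 60, with log2 change -0.40 ± 0.09 (SE; adjusted p = 0.012), and lost the call in 3 runs (adjusted p = 0.057 with Day 30 replicate 2 left out, 0.054 with Day 60 replicate 2 left out and 0.064 with Day 60 replicate 3 left out). The glutamate transporter SLC1A6 was at 6.19, 26, 22.5 and 8.14 CPM at Day 30 and 0, 0.258 and 0 CPM at Day 60, with log2 change -7.56 ± 0.89 (SE; adjusted p = 0.00020), a change of -6.94 with Day 60 replicate 1 left out, -11.88 with Day 60 replicate 2 left out and -6.94 with Day 60 replicate 3 left out, and the call was lost with limma-voom (adjusted p = 0.090). BHMT, a methyltransferase of liver and lens, went from 0, 0.667, 1.22 and 0 CPM to 16, 168 and 82.7 CPM (log2 change 7.50 ± 1.48, adjusted p = 0.0041; adjusted p = 0.21 with limma-voom, adjusted p = 0.056 with robust dispersions, log2 change 8.55 with Day 30 replicate 3 left out and log2 change 6.66 with Day 60 replicate 2 left out) with the same order of Day 60 wells as the crystallins.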

How the data were processed

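Poly(A) RNA of 11 wells (500 ng each, paired 150-base reads) was aligned to hg38 with STAR 2.5.3a and counted with featureCounts 2.0.3, per the submitters' processing notes. The values used are the deposited counts, whole numbers of read pairs or reads per gene symbol; the use of strand is not given in the sources used here, and 35 of the 190 genes named share exons with another gene of the table in GENCODE 29, so their reads may be shared. The deposited table of normalized values was not used, because the gene length implied by its values differed between libraries for the same gene. Counts were tested in R 4.3.3 with edgeR 4.0.16 (trimmed-mean scaling, filterByExpr with a minimum count of 10, which removed 0 genes, 1 factor for day over all 11 libraries, quasi-likelihood F test, Benjamini-Hochberg adjustment over 19990 genes, threshold 0.05). SEs were obtained from the log2 change and its F statistic. CPM are counts per 1000000 of the scaled library size. Bounds against 0 counts use a floor of 3 counts per library and, like the counting intervals (exact binomial, 95%), cover counting error only.

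Alternatives were DESeq2 1.42.0, limma-voom (limma 3.58.1), other scalings, filters, dispersions and library sets, a replicate block and each well left out. The members and lists were chosen with earlier results of these data known. The naming rule admits genes among the 6 called members of a list with the largest change (mean of at least 1 CPM) or its 4 members with the highest CPM, among the 12 largest log2 changes each way at 5 CPM or more without overlap of days, or among the 15 largest differences in CPM each way. Of the 521 genes it admits, 155 are named, chosen to describe the lists. The other 35 genes named are members of the lists or defining markers chosen after their values were seen. Promoters were matched by symbol to RefSeq (GRCh38.p14), with a match for 13692 genes. Some genes of the lists are not reported here.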

Additional observations from a re-analysis of the deposited data

Results flagged for a closer look

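Among the 4 Day 30 wells, 1 well stood far from the others in 10 of the 197 genes and summed lists examined, judged by the gap to its nearest neighbour as a share of the whole range. Chance marks about 1 in 20 such groups, and the groups of 3 Day 60 wells cannot be judged in this way.

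Of these groups, 4 were lens or neural genes with counts in a single Day 30 well and 0 in the rest. CRYAA was at 0.197 CPM in Day 30 replicate 3, and CRYAA2, its near-identical copy, at 0.467 CPM, MIP at 0.100 CPM and SYT4 at 0.467 CPM in Day 30 replicate 2. IFI44 was at 0.0329 CPM, 1 count, in Day 30 replicate 3 and at 0 in the others.

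The other groups were expressed in all wells. The creatine kinase CKMT2 was at 139 CPM in Day 30 replicate 2, against 112 to 115 CPM in the other Day 30 wells. That well was low for the mineralocorticoid receptor NR3C2 (3.60 CPM against 5.73 to 5.84 CPM) and for PPARD (43.9 CPM against 54.3 to 56.4 CPM). It was high for the cyclin CCND3 (27.8 CPM against 20.3 to 20.9 CPM). Day 30 replicate 1 was high for the clock gene PER1 (99.1 CPM against 73.2 to 77.4 CPM). For CKMT2, NR3C2 and PPARD all Day 60 wells still lay above all Day 30 wells.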

How the results depend on the processing

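The 2060 calls (878 higher and 1182 lower) numbered 1220 to 1754 with 1 well left out, with 571 to 700 higher and 605 to 1056 lower. With an adjusted p under 0.01 there were 937 calls, 393 higher and 544 lower. With only the libraries of Day 30 and Day 60 in the fit, 2979 genes were called, 1326 of them higher. The other settings gave counts within 1.5 times the main ones, and in all settings but that of single wells and the stricter threshold 2009 to 2979 genes were called. Of the 149 called genes named, 32 lost the call in at least 1 setting, 12 of them with 1 well left out, 21 with limma-voom and 9 with robust dispersions; 0 lost it with DESeq2 or another scaling, and 0 changed direction. Of the 41 genes named that were not called, 11 gained a call in at least 1 setting. The labels do not say whether well numbers pair wells across days, and the wells were treated as unpaired. Same-numbered wells of the 2 days had correlations of deviations from the day mean of 0.11, 0.08 and 0.06 over 15541 genes. Wells with different numbers had correlations from -0.16 to 0.11, the highest for Day 30 replicate 3 with Day 60 replicate 2. These values are too small and too few to decide whether the wells were paired. With a replicate block 2474 genes were called. Depth limits genes near 0: at 1 to 3 counts over a day a change is known only within its counting interval, and the spread rests on 3 Day 60 wells of 1 differentiation, so other lines or differentiations are not covered.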
